A study of Drosophila melanogaster with 2 samples.

Results

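Peaks with AT-rich summits were those where the summit base and the 50 bp on either side of it together held at most 25% G plus C, or 25 G and C bases, in the Release 6 assembly, which has dm6 coordinates. They were 868 of the 6776 peaks in the conservative list of binding sites for CG12605-eGFP, which keeps peaks with an irreproducible discovery rate (IDR, a measure of how well ranks repeat between replicates) of at most 0.01. That is 12.8% (95% exact binomial interval 12 to 13.6). The rule itself reads only the genome sequence at the summit. It was drawn up with the low G plus C share of strong summits already known, so the signals below are a description of that pattern and no independent support for it. The list comes from 2 biological replicates of whole Drosophila melanogaster pupae aged 1 day, of the transgenic strain CG12605-GFP, which carries an insertion aimed at CG12605 and makes its protein fused to enhanced green fluorescent protein. Chromatin was sonicated to fragments of 200 to 800 bp and immunoprecipitated with an antibody against the fluorescent protein. Both replicates form a single group with no second condition, the sex of the pupae was not recorded, and the labels do not say whether the tag sits on an added copy of the gene. The tissues of the pupa are mixed in each library, so the cells that gave rise to a peak are not known.

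The CG12605 protein is a zinc finger factor of the family of Snail and Scratch, repressors that read short E-box sequences and act in neural and mesodermal development. DNA rich in A and T is common in the fly genome outside coding exons, and long A or T tracts are stiff and disfavour nucleosomes, the histone spools that package DNA. At promoters, A and T letters also make up the TATA box, a short sequence near the start site that is read by the basal transcription machinery. E-boxes hold G and C bases, so a window chosen to be AT-rich has little room for them by construction.

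The windows below show what such summits look like. They are the windows of the 3 members with the highest signal within 1000 bp of the start of a protein-coding gene, of the 2 highest farther away, and of the member with the lowest G plus C share. Each is named for the gene with the nearest start site and runs 5′ to 3′ along the strand of that gene, with G and C in capitals. The positions are dm6.
CG18549 (chr3R:12449124-12449224, + strand): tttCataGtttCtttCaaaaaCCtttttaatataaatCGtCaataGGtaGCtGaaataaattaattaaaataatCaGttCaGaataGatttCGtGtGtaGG
Gapdh2 (chrX:15867933-15868033, + strand): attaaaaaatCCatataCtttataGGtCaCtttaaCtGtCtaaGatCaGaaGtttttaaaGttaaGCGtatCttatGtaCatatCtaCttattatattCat
mRpS10 (chr3R:15229488-15229588, + strand): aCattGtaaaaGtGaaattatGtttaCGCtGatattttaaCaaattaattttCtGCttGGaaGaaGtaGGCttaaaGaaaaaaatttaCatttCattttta
CG11050 (chr2L:6612657-6612757, + strand): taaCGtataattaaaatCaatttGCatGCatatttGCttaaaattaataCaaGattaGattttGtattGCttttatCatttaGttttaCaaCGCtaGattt
CG31668 (chr2L:2202358-2202458, - strand): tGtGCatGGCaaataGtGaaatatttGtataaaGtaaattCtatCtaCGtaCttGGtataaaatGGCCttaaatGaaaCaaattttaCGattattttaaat
scat (chr2L:9431192-9431292, + strand): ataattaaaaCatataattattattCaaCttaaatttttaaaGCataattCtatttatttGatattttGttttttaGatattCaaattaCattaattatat
The window at CG18549 holds 25 G or C bases and so lies exactly at the limit, while the window at scat holds 11. Runs of A and T letters are broken by single G or C bases in all 6 windows, and TATAAA, searched on both strands, is present in those of CG18549, Gapdh2 and CG31668.

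The G plus C share averaged 22.1% ± 2.50 (SD over 868 windows) in the AT-rich summits and 40.7% ± 10.4 (SD over 5908 windows) in the other peaks. Windows under the same limit made up 5.04% of all 133641556 windows of that size on the 6 main chromosome arms, so AT-rich summits were 2.54 times as frequent among peaks as such windows are in the assembly. The share of peaks is read against the assembly, repeated sequence included, and not against open chromatin, which was not measured. The reads of the control are not analysed here. The limit cut through a continuous range of values. The 180 peaks with 25 G or C bases had a median signal of 93.3, and the 232 peaks with 26, just outside, had a median of 98.4, the highest of them at Elp5 with a signal of 772.

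Peaks with AT-rich summits were taller than the others in the conservative list and in the list of each replicate. The signal is the value the authors deposited with each peak, on a scale that these sources do not give. AT-rich and other peaks are compared only within a list. In the conservative list its median was 106 at AT-rich summits (quartiles 73.5 and 173, range 10.6 to 1293) and 83.6 at the other summits (quartiles 62.1 and 123, range 8.83 to 1369), a log2 ratio of 0.34. In the thresholded list of replicate 1 the medians were 65.6 at 587 AT-rich summits and 52.4 at 3435 others, and in that of replicate 2 they were 66.0 at 671 and 53.8 at 4723. The log2 ratios of 0.33 and 0.30 in the lists of replicate 1 and replicate 2 had an SD of 0.02. With windows of 100 bp on either side of the summit the ratio in the conservative list was only 0.08. With 1 group of 2 replicates no test across animals could be made, and peaks are not replicates of each other, so no p is given for this or any later difference. The read depth of the libraries is unknown, and all intervals cover counting error only.

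The share of AT-rich summits climbed with the strength of the peak. Split into 10 equal groups (deciles) by signal, the strongest decile of the conservative list held 160 AT-rich summits among 678 peaks (23.6%, interval 20.4 to 27.0), the fifth held 80 among 677 (11.8%, 9.48 to 14.5) and the weakest held 31 among 678 (4.57%, 3.13 to 6.43). Of the strongest 100 peaks, 34 were AT-rich. In the list of replicate 1 the strongest decile held 29.8% and the weakest 5.21%, and in that of replicate 2 they held 23.1% and 5.0%. In all 3 lists the weakest decile thus stood near the 5.04% of the assembly. Between the fourth and the seventh decile of the conservative list the share moved only between 11.1% and 13.7%, and these intervals overlap.

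**Figure D1:**
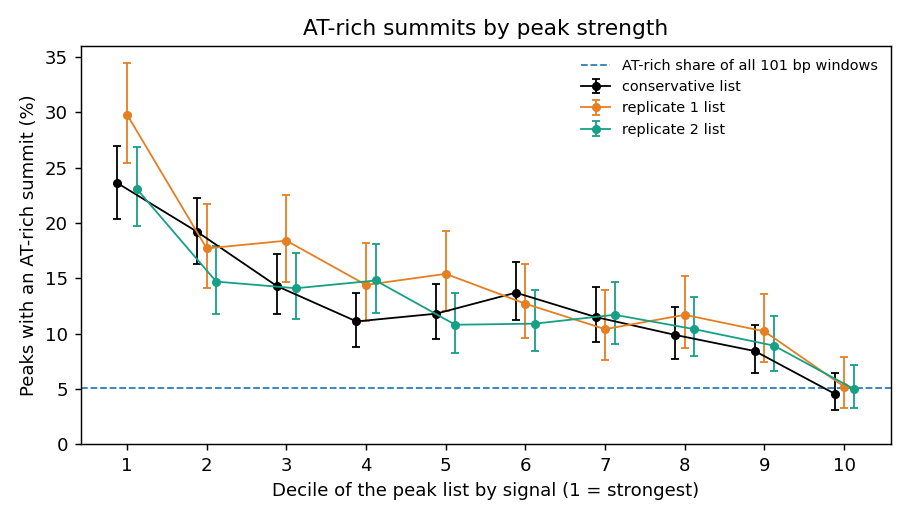
The share of peaks with an AT-rich summit (vertical axis, percent) is plotted for each decile of a list by signal (horizontal axis, 1 the strongest), for the conservative list and the thresholded list of each replicate, with 95% exact binomial intervals and a dashed line at the share of such windows in the assembly. The strongest decile lies between 23.1% and 29.8% in the 3 lists, and the weakest between 4.57% and 5.21%, beside the line at 5.04%.

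The 3 tallest AT-rich peaks near start sites lay by CG18549, Gapdh2 and mRpS10. The summit at CG18549 (FBgn0038053, 3R, from 12449296 to 12456355 on the plus strand) lay 122 bp upstream of the start site and had a signal of 1128 in the conservative list, with 587 in replicate 1 and 533 in replicate 2. Gapdh2 (FBgn0001092, X, from 15868145 to 15869661, plus strand), the glycolytic enzyme glyceraldehyde-3-phosphate dehydrogenase, followed with 1002, and with 506 in replicate 1 and 497 in replicate 2, its summit 162 bp upstream. At mRpS10 (FBgn0038307, 3R, from 15229665 to 15230516, plus strand), a protein of the small subunit of the mitochondrial ribosome, the values were 976, 500 in replicate 1 and 478 in replicate 2, with the summit 127 bp upstream. At all 3 peaks the replicate values stood far above the medians at AT-rich conservative summits, 51.9 in replicate 1 and 57.7 in replicate 2. The peaks were chosen for height in a list derived from both replicates, so this is no independent support.

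Further down the same ranking, mRpL41, of the large subunit of the mitochondrial ribosome, had a signal of 894, with 407 in replicate 1 and 484 in replicate 2. Btk, a cytoplasmic tyrosine kinase, had 807 (405 and 389 in replicates 1 and 2), and Fkbp14, a protein folding enzyme of the endoplasmic reticulum, had 768 (353 and 414). The Tudor domain protein gene papi, which acts with small RNAs on transposons, had 740 (353 and 380), and Lpin, the phosphatidate phosphatase lipin, had 694 (366 and 310).

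The kinase gene gish, of the casein kinase family, had 693 (325 in replicate 1 and 373 in replicate 2). The Golgi transport gene fws had 661 (328 and 330), GstE13, a glutathione transferase, had 637 (283 and 363), and REPTOR, a transcription factor held back by TOR signalling, had 595 (275 and 314). The remaining genes among the 20 tallest were CG1635 at 813, CG11309 at 782, CG5611 at 755, osp at 677, CG13390 at 675, CG8320 at 657, CG1142 at 649 and Tina-1 at 622.

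All 20, chosen for their height, were matched by a peak in each replicate's thresholded list. So were 48.3% of all conservative peaks, and in the strongest decile by signal 100% of AT-rich peaks and 99.4% of the others. Of the 20 summits, 18 lay upstream of the nearest start site and 16 of them lay 80 to 200 bp upstream. Those of CG8320 and GstE13 lay 94 and 83 bp downstream. The upstream summits at Btk, CG11309, Fkbp14, papi, Lpin, gish and REPTOR lay inside the named gene, upstream of a start site within it. A second gene started within 1000 bp of 7 of the 20, such as Art3 beside mRpS10, so these peaks cannot be given to 1 gene. The signal was higher in replicate 1 at 6 of the 20 and higher in replicate 2 at the others, on scales that may differ between the lists.

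**Figure D2:**
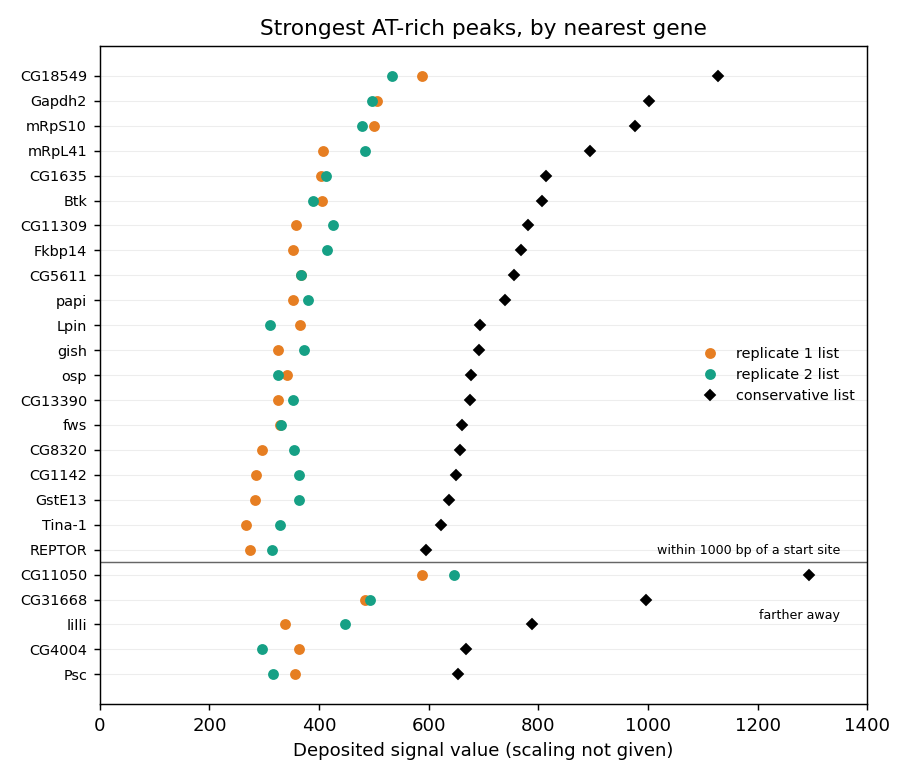
The deposited signal (horizontal axis, scaling not given) of the 20 tallest AT-rich peaks within 1000 bp of a start site and, below the line, of the 5 tallest farther away, named by the gene of the nearest start site. Circles are the values in the list of each replicate and diamonds those of the conservative list. The replicate values of a peak range from nearly equal, as 367 and 368 at CG5611, to apart, as 338 and 447 at lilli, and the conservative values run from 595 at REPTOR to 1293 at CG11050.

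The tallest AT-rich peak of all was not at a promoter as defined here. Its summit lay in an intron of CG11050 (FBgn0031836, 2L, summit 6612707), 1020 bp downstream of the nearest start site and so just outside the limit of 1000 bp, with a signal of 1293, and with 588 in replicate 1 and 646 in replicate 2. The next lay outside protein-coding genes, 3758 bp from the start of CG31668 (2L, summit 2202408), with 996, and with 483 and 493 in replicates 1 and 2. An intron of lilli, a gene of the AF4 family of elongation factors, held a summit 21982 bp upstream of the nearest start site of that gene, with 788 (338 and 447 in replicates 1 and 2). The last 2 lay between genes, nearest to CG4004 with 668 (363 and 296) and to the Polycomb group gene Psc with 653 (355 and 316), at distances of 5072 and 4217 bp. Each replicate's thresholded list held all 5.

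The weakest AT-rich peaks had signals near those of the weakest peaks in the list as a whole. They lay by Ddc, which encodes dopa decarboxylase (10.6), siz, a regulator of small GTPases (10.7), APP-BP1, of the neddylation pathway (12.1), an intron of lilli (12.4) and CG5455 (14.0). None of these 5 had a summit in the ranked list of either replicate within 100 bp, which held for 7 AT-rich peaks in all, although those at APP-BP1, lilli and CG5455 overlapped a peak in both thresholded lists. The weakest decile of the list held 31 AT-rich peaks, and 17 of these had another conservative summit within 1000 bp. At the other end of the sequence range, the 5 members with the lowest G plus C share all had their summit 99 to 163 bp upstream of a start site. They were scat, a gene of vesicle tethering (10.9% G plus C, signal 82.4), Pbgs, of heme synthesis (11.9%, 112), Ucp4A, a mitochondrial carrier (13.9%, 271), Cdc16, of the anaphase-promoting complex (13.9%, 206), and CG7739 (13.9%, 84.6).

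Fewer of the AT-rich summits than of the others lay near a start site. No more than 1000 bp from a start site of protein-coding genes were 373 of the 868 AT-rich summits (43.0%, interval 39.7 to 46.3) and 3052 of the 5908 others (51.7%, 50.4 to 52.9), where all conservative peaks stood at 50.5%. Both exceeded the AT-rich windows of the assembly, of which 21.6% lay as near to a start site. The direction depends on the limit. With at most 20% G plus C, 54.9% of 184 AT-rich summits lay within 1000 bp, against 50.4% of the other peaks, and with windows of 100 bp on either side it was 56.0% of 166, against 50.4%. In the list of replicate 1 the shares were 50.9% and 53.0%, and in that of replicate 2 they were 44.9% and 51.3%.

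Introns beyond 1000 bp held 327 AT-rich summits (37.7%, 34.4 to 41.0) and 33.2% of the others, against 36.9% of AT-rich windows. Intergenic sequence, meaning sequence outside protein-coding genes, held 160 (18.4%, 15.9 to 21.2) and 13.4% of the others, against 32.4% of AT-rich windows. Untranslated exons held 8 (0.922%) and coding exons 0 (which allows up to 0.346%), beside 71 and 30 of the other summits. Coding exons offer few such windows, since only 0.0596% of the windows there were AT-rich. Farther than 10000 bp from any start site lay 137 AT-rich summits (15.8%, 13.4 to 18.4) and 641 others (10.8%).

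The greater height of AT-rich peaks was largest at promoters. Within 1000 bp of a start site the median signal was 128 at AT-rich summits and 84.3 at other summits, a log2 ratio of 0.60, and farther away it was 93.3 and 82.6, a log2 ratio of 0.18. The replicates kept that order, with medians of 59.8 and 41.1 in replicate 1 and of 70.2 and 48.7 in replicate 2 within 1000 bp. Farther away the medians were 46.2 and 39.9 in replicate 1 and 50.7 and 47.9 in replicate 2. In the strongest decile of the conservative list 69.4% of AT-rich summits and 57.1% of other summits lay within 1000 bp of a start site, while in the fourth decile it was 32.0% and 51.2%, and in the weakest 32.3% and 52.7%.

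Near start sites, AT-rich summits gathered in a narrow band upstream. Of the 306 within 500 bp of a start site, 151 (49.3%, interval 43.6 to 55.1) lay more than 100 and up to 200 bp upstream, against 501 of 2398 other summits (20.9%, 19.3 to 22.6). In the lists of replicate 1 and replicate 2 the share was 48.6% (121 of 249) and 46.9% (114 of 243) for AT-rich summits, and 22.4% and 21.1% for others. The band also holds more AT-rich sequence than its surroundings, as 13.6% of the windows centred there were AT-rich and 23.8% of the AT-rich windows within 500 bp lay there. That is less than the 49.3% of the summits. At the start site itself the order of AT-rich and other summits was the reverse. From 50 bp upstream to 49 bp downstream lay 16 AT-rich summits (5.23%, 3.02 to 8.35) and 613 others (25.6%, 23.8 to 27.4). Of AT-rich windows 4.57% lay there, a share within the interval of AT-rich summits.

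On the whole 273 of the 306 AT-rich summits (89.2%, interval 85.2 to 92.5) lay upstream of the nearest start site, against 62.8% of the others and 79.9% of AT-rich windows. Summits more than 100 and up to 200 bp upstream had a median of 141 when AT-rich and 97.9 otherwise, and those in the first 100 bp downstream had 133 and 77.6. In the band, AT-rich summits made up 23.2% of all peaks, against 3.11% of those in the first 100 bp downstream. More than 1 gene had a start site within 1000 bp at 148 of 373 AT-rich promoter summits (39.7%, 34.7 to 44.8) and at 26.1% of 3052 others.

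**Figure D3:**
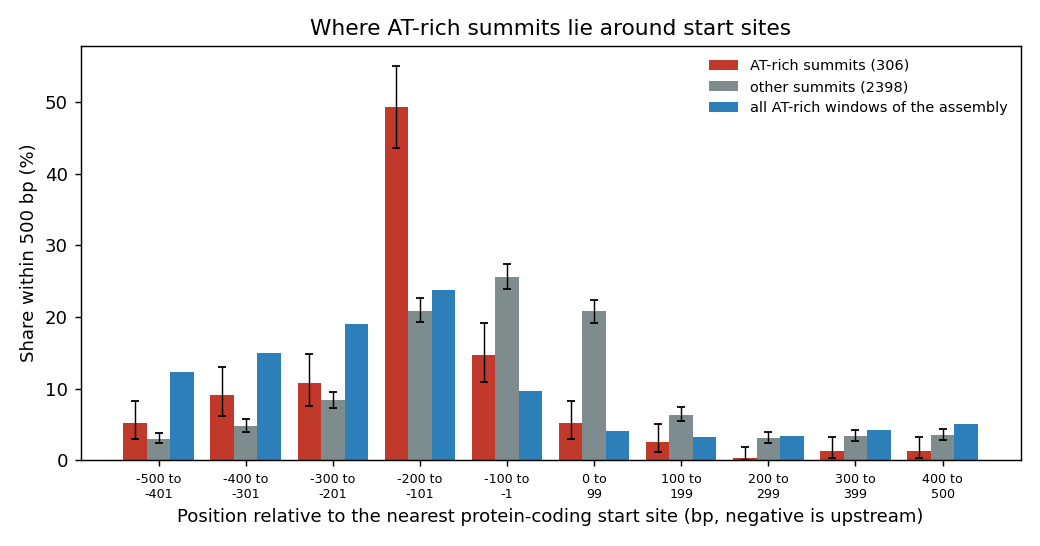
The share of summits within 500 bp of a start site (vertical axis, percent) that fell in each 100 bp interval around the nearest protein-coding start site (horizontal axis, negative upstream), for 306 AT-rich summits, 2398 other summits and all AT-rich windows of the assembly; error bars are 95% exact binomial intervals. The tallest bar is that of AT-rich summits more than 100 and up to 200 bp upstream, at 49.3%, beside 20.9% of other summits and 23.8% of AT-rich windows.

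Most AT-rich stretches of the genome had no peak. Neighbouring AT-rich windows were joined into 330248 stretches, of which 868, or 0.263%, held the summit of a conservative peak. The share was 1.87% (155 of 8291) for stretches whose middle lay more than 100 and up to 200 bp upstream of a start site, 0.763% in the 100 bp nearer to it and 0.669% in the 100 bp beyond. It was 0.249% in introns and 0.161% in intergenic sequence. Of stretches made of 50 to 99 joined windows (median 69 windows) 1.37% held a summit. The count is of neighbouring window centres, each with 50 bp on either side, so the sequence covered is longer. The share was 1.00% for those of 100 or more windows (median 128) and 0.0335% for those under 10 (median 2). A longer stretch offers more positions at which a summit can fall, so these shares cannot show whether peaks favour long stretches. Shares per base were not tested. Peaks of both kinds lay almost wholly in unique sequence. Of AT-rich summit windows 99.7%, and of the others 98.9%, held only 31-base words that occur once in the assembly, against 79.5% of AT-rich windows. A further 11.6% of AT-rich windows held no such word, and these count in the shares of windows and stretches. Whether reads could be placed there was not tested. No AT-rich summit lay in an annotated transposable element, in which 12 of the other summits and 7.60% of AT-rich windows lay.

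Sequence 200 to 350 bp from AT-rich summits was richer in G plus C than that around other summits or AT-rich windows of the assembly. Averaged over 25 bp steps, G plus C was lowest at the summit itself, at 21.8%, and reached 46.6% at 275 bp to the left on the plus strand of the assembly. The low at the centre is set by the rule, and AT-rich windows of the assembly had 21.1% there. Over the bases 200 to 350 bp from the summit it averaged 45.4% ± 6.31 (SD over 868 windows), against 42.5% ± 6.90 (SD over 5908 windows) at the other summits and 39.5% around AT-rich windows of the assembly. The replicate lists gave 45.3% and 45.4% for AT-rich summits in replicates 1 and 2, and 42.8% and 42.5% for the others. The difference was present both near start sites and away from them. Within 1000 bp of a start site the flanks had 44.5% at AT-rich summits, 41.5% at the others and 40.2% at AT-rich windows, and farther away they had 46.1%, 43.5% and 39.4%.

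**Figure D4:**
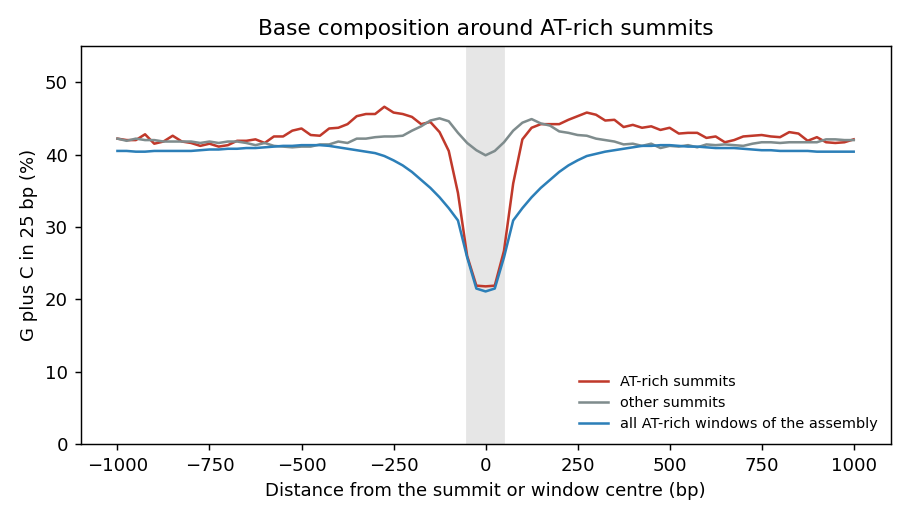
G plus C (vertical axis, percent in 25 bp) is plotted by distance from the summit or the window centre (horizontal axis, bp) for AT-rich summits, other summits and all AT-rich windows of the assembly, with the window used to choose the members shaded. The curve of AT-rich summits has its minimum of 21.8% at the centre, where the rule sets it low. It lies above both other curves from about 200 bp and averages 45.4% between 200 and 350 bp. At 500 bp it is still above, at 43.6% on the left and 43.7% on the right, with other summits at 41.1% and 41.2%. At 1000 bp it lies beside that of other summits and above that of AT-rich windows.

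The longest unbroken run of A and T letters had a median of 15 bp in AT-rich windows and 8 bp at other summits, a difference that the rule brings with it. A run of 10 or more of 1 letter, the kind of tract that is poor in nucleosomes, was present in 77 AT-rich windows (8.87%, interval 7.06 to 11.0) and 7.77% of the others (7.10 to 8.48), and these intervals overlap. In the 273 windows upstream within 500 bp of a start site, A made up 39.0% and T 39.5% of the bases on the strand of the gene, nearly equal amounts.

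The 12 short motifs searched on both strands had shares in AT-rich windows of the assembly that lay within the intervals of AT-rich summits, for TTTATG at the lower bound. TATAAA, the core of the TATA box, was in 379 windows (43.7%, interval 40.3 to 47.0), against 12.9% of other summits and 42.6% of AT-rich windows. Of the members with TATAAA, 42.2% lay within 1000 bp of a start site, about the share of all members. AAAAAAA was in 27.5%, 18.7% and 26.4% of AT-rich summits, other summits and AT-rich windows, and TAATTA, a core read by many homeodomain proteins, in 18.3%, 4.77% and 20.6%. ATATATA was in 16%, 4.10% and 17.8% in the same order, TAAACA, a forkhead core, in 18.4%, 10.7% and 19.8%, and TTTATG, a core of Caudal-like sites, in 20.6%, 10.2% and 18.0%. CATAAAAAA, a site of Hunchback, was in 0.691%, 0.779% and 1.36%, and TATCGATA, the DREF site, in 0.346%, 0.575% and 0.325%. TAATTA and TATCGATA read the same on both strands, and CATAAAAAA contains the reverse complement of TTTATG, so each match of the long one counts for the short one too, while matches of TATAAA and ATATATA can overlap.

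The 4 motifs with 3 or more G and C bases were rarer than at other summits, a difference on which the limit on G plus C bears directly. GAGAG, read by GAGA factor, was in 35 AT-rich windows (4.03%, 2.82 to 5.56), 21.9% of the others and 3.19% of AT-rich windows of the assembly. CACCTG, the E-box core of Snail and Scratch proteins, was in 5 AT-rich windows (0.576%, 0.187 to 1.34), 3.67% of the others and 0.410% of AT-rich windows. The longer Scratch site CAACAGGTG, which holds that core on the other strand, was in 0 of 868, which allows a share of up to 0.346%, and in 59 of the others (0.999%), while 0.00843% of AT-rich windows hold it. GGTCACACT, a core promoter sequence, was likewise in 0 of 868 and in 29 of the others. A match or its absence describes these letters and nothing of the factor. Members with TATAAA had a median signal of 107 and those without it 104, members with AAAAAAA had 97.8 and those without it 109.

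**Figure D5:**
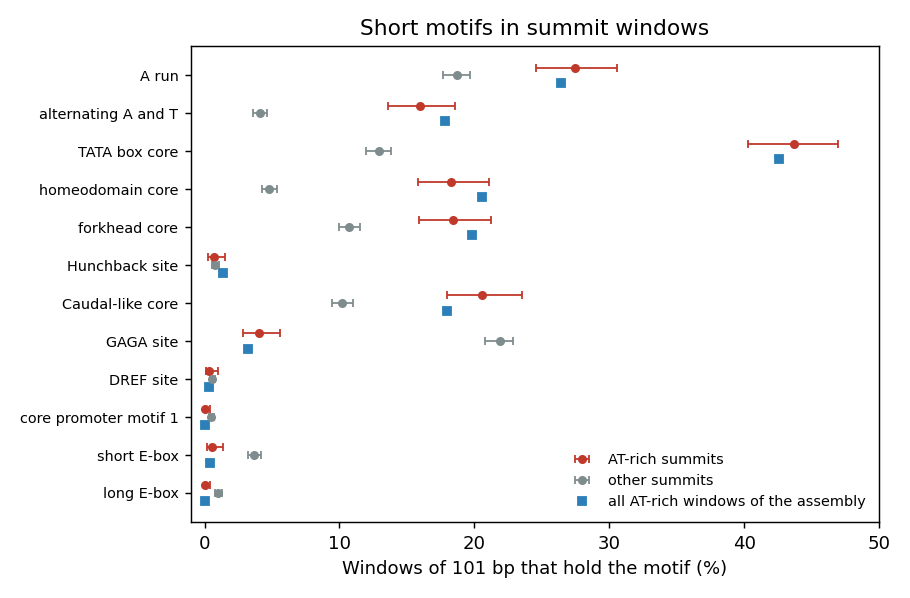
The share of summit windows that hold each of 12 short motifs on either strand (horizontal axis, percent) for AT-rich summits and other summits, with 95% exact binomial intervals, and for all AT-rich windows of the assembly. For the TATA box core AT-rich summits stand at 43.7%, beside AT-rich windows at 42.6% and away from other summits at 12.9%, while for the Hunchback and DREF sites the intervals of AT-rich summits include the share of the others.

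At the level of genes, 525 of 13945 protein-coding genes (3.76%) had an AT-rich summit within 1000 bp of a start site, and 3223 (23.1%) had any conservative summit. The 21 gene lists were read against that 3.76%, which also reflects how often a gene had any summit. Of the 3223 genes with any summit, 525 (16.3%) had an AT-rich one. Genes of the mitochondrial ribosome had AT-rich summits at 6 of 73 (8.22%, interval 3.08 to 17.0), with a median signal of 492, where the median of all AT-rich promoter summits was 128. Beside mRpS10 and mRpL41 they were mRpL23 at 571, mRpL24 at 412, mRpL20 at 352 and mRpS24 at 85.5. A second gene started within 1000 bp of all 6 summits and was the nearer one at mRpL24, mRpL20 and mRpS24. Any summit lay at 20 of the 73 genes. Genes of the cytoplasmic ribosome had any summit at 57 of 92 and an AT-rich one at 0 (upper bound of the interval 3.93%). Both intervals include 3.76%, but among genes with any summit the cytoplasmic share was 0% of 57, below the 16.3% of all such genes. The cytoplasmic count was 1 in the list of replicate 1, 3 in that of replicate 2, 1 at peak midpoints, 2 within 2000 bp of a start site and 3 with G plus C up to 30%. With windows of 100 bp on either side of the summit the mitochondrial count was 0 and the cytoplasmic count 1. Whether either list differs from other genes was not tested.

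Among 13 glycolysis genes, 3 had an AT-rich summit (23.1%, interval 5.04 to 53.8) of 8 with any. Beside Gapdh2 these were Ldh, lactate dehydrogenase, with 190 in the conservative list, 105 in replicate 1 and 81.2 in replicate 2, and Hex-A, hexokinase, with 136, 54.5 and 85.1. Their summits lay 193 and 204 bp upstream. The glycolysis interval lies above 3.76%. Among its genes with any summit 37.5% had an AT-rich one, against 16.3% of all such genes. With at most 20% G plus C the glycolysis count was 1, and with at most 30% it was 5. Whether the list differs from other genes was not tested. Aminoacyl-tRNA synthetases, which charge tRNAs, had 3 of 32 (9.38%) of 6 with any summit, namely LeuRS-m at 208, IleRS at 190 and SerRS at 106. Oxidative phosphorylation had 2 of 91 (2.20%) of 14 with any summit, namely ATPsynE at 100 and ND-24 at 98.1.

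Among developmental lists, the Notch list had 3 of 22 (13.6%, interval 2.91 to 34.9), namely nej, the acetyltransferase CBP, at 458, aph-1, of gamma-secretase, at 115 and the target gene E(spl)mdelta-HLH at 110. Neuroblast and temporal factors had 3 of 24 (12.5%, 2.66 to 32.4), namely brat, a translational repressor of neural stem cell daughters, at 347, the BTB zinc finger factor mamo at 122 and the epithelial and neural factor grh at 83.9. The response to ecdysone, the steroid that drives metamorphosis, had 2 of 19 (10.5%, 1.30 to 33.1), Ldh again and the nuclear receptor gene Hr78 at 70.2, although 17 of the 19 had a summit of some kind. Cell death genes had 2 of 14 (14.3%, 1.78 to 42.8), the caspase inhibitor Diap1 at 388 and the caspase Drice at 55.7. These 4 intervals all include 3.76%. Among genes with any summit the AT-rich share was 21.4% for the Notch list and 37.5% for neuroblast and temporal factors. It was 11.8% for the ecdysone response and 28.6% for cell death, against 16.3% of all genes with any summit. Cell cycle genes had 1 of 23 (aurB at 56.0), axon guidance 1 of 27 (unc-5 at 65.0) and BTB zinc finger factors 1 of 14 (mamo). Chemosensory genes had 1 of 230 (Gr32a at 59.1, 0.435%, interval 0.0110 to 2.40) and cuticle proteins 1 of 120 (Cpr72Eb at 78.5, 0.833%, 0.0211 to 4.56). The chemosensory interval lies below 3.76%. Only 8 of the 230 and 4 of the 120 had any summit (3.48% and 3.33%, against 23.1% of all genes). No AT-rich summit lay at the 27 homeobox and appendage selector genes, 25 genes of neuron function, 25 immune genes, 24 muscle genes, 23 genes of epithelial adhesion and polarity, 6 chromatin proteins that bind AT-rich DNA or 6 Snail and Scratch family genes. Those of the last list include CG12605. At LeuRS-m, ATPsynE, aph-1, E(spl)mdelta-HLH, Gr32a and aurB the nearest start site was that of another gene. For a list of 25 genes, 3.76% comes to about 1 gene, so counts of 0 or 1 in lists of that size lie near that share of all genes. Any summit lay at 14 genes of epithelial adhesion and polarity, 10 immune, 6 selector, 6 muscle and 5 neuron function genes. It lay at 4 of the chromatin proteins, 3 Snail and Scratch family, 13 axon guidance, 12 BTB and 6 cell cycle genes. Whether the AT-rich counts among these differ from the 16.3% of all genes with any summit was not tested.

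The chromosome arms held unequal shares of the AT-rich summits. On 2L lay 193 of them (22.2%, interval 19.5 to 25.2), against 16.5% of the other peaks and 17.7% of AT-rich windows. On 3L the shares were 25.8%, 22.2% and 23.5% in that order, and on 3R they were 22.6%, 22.0% and 21.9%. X held 131 (15.1%, 12.8 to 17.6), against 20.2% and 17.7%, and 2R held 124 (14.3%, 12 to 16.8), against 19.0% and 16.7%. Per 100 kb of AT-rich windows that was 16.2 AT-rich summits on 2L, 14.2 on 3L, 13.3 on 3R and 11.0 on both X and 2R. Chromosome 4 had 12.8% AT-rich windows, the highest share of any arm, and 0 AT-rich summits (which allows up to 0.346% of the 868), beside 3 other peaks.

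AT-rich peaks overlapped the thresholded lists of both replicates more often than other peaks, an order that did not hold in most deciles of signal. Of the 868, 503 (57.9%, interval 54.6 to 61.3) shared at least 1 bp with a peak in each replicate's thresholded list, against 46.9% of the others and 48.3% of all conservative peaks. Within deciles of signal the shares were closer, at 86.6% and 89.3% in the third decile and at 50% and 50.9% in the fifth. In the weakest decile 3 of 31 AT-rich peaks (9.68%) and 24.3% of the others were in both lists. A summit of each replicate lay within 100 bp of 824 AT-rich summits (94.9%) and of 87.5% of the others. The 2 replicate summits lay a median of 20 bp apart at AT-rich peaks and 22 bp apart at the others. Across those 824 peaks the correlation between replicate signals was 0.817 by Spearman's rho, and 0.892 by Pearson's r of log2 values. At 5167 other peaks the same correlations were 0.720 and 0.833. They are given as a description, since the list was kept for ranks that repeat. The signal was higher in replicate 2 at 548 of the 824 AT-rich peaks, with a median ratio of 1.12 to replicate 1. At the other peaks that ratio was 1.20. The scales may differ between the 2 lists, so no difference between the replicates is read from these ratios. AT-rich peaks also had the authors' common width of 360 bp less often (64.5% and 78.0%), and fewer of them had another conservative summit within 1000 bp (26.6% and 34.0%).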

How the data were processed

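Deposited peak lists on dm6 were used for 2 biological replicates of 1 group. The signal of each peak is the authors' own value, deposited with it and of unstated scaling. The −log10 of the IDR was deposited by the authors in the ranked list that pairs the replicates. The summit offset is another deposited value, in bases from the start of the peak. Per the text deposited with the samples, peaks were called against a control alignment, which was not analysed here. The aligner and caller, with versions, are not stated in the labels or files and so not given in the sources used here.

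Summits were placed on the Release 6 assembly and the Ensembl 115 annotation. The start sites used belong to 13945 protein-coding genes, and negative distances are upstream on the strand of the gene. Positions count from 1. G plus C was counted in windows of 50 bp on either side at every base without unread letters, which gave the AT-rich windows of the assembly. Values in a replicate are those of its nearest ranked summit within 100 bp, or of its thresholded list where so named. An overlap is at least 1 bp. Shares have exact (Clopper-Pearson) 95% intervals, and a count of 0 allows 3 of the total.

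The genes named are those of the 20 strongest AT-rich peaks up to 1000 bp from a start site, the 5 strongest farther away, the 5 weakest, the 5 with the lowest G plus C share, and up to 3 per gene list with the highest signal. For mitochondrial ribosomal genes all 6 are named, 3 of them after their values were seen, as is Elp5 outside the limit. The members, lists, motifs and alternatives were chosen with earlier results of these data known, among them the low G plus C share of strong summits. Of the names in the lists, Eip71CD, Dl, Dx, Hairless, nct, B, Kel, abrupt and pfk matched no gene. Replicate numbers only name the samples. Window counts and distances were tested on simulated sequence. Python 3.11.15, numpy 2.4.6, pandas 2.3.3, scipy 1.17.1 and matplotlib 3.10.9 were used.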

Additional observations from a re-analysis of the deposited data

How the results depend on the processing

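The membership follows the limit and the window. With windows of 100 bp on either side of the summit (wide windows) there were 166 members, with at most 20% G plus C 184, with at most 30% 2017, and at an IDR of at most 0.001 there were 578; the list of 1 replicate alone gave 587 to 671. The log2 ratio of median signals, 0.34, was 0.32 with 25 bp on either side (narrow windows), 0.08 with wide windows, 0.40 at 20%, 0.41 at peak midpoints, 0.37 in the other series-level list and 0.30 to 0.33 with a single replicate. It was 0.60 within 1000 bp of a start site, 0.18 farther away and 0.25 for peaks with no other summit within 1000 bp. The share within 1000 bp of a start site, 43.0%, was 56.0% with wide windows and 54.9% at 20%, where the other peaks had 50.4% in both and the order turned. It was 39.2% at 30%, 46.4% at an IDR of at most 0.001, 44.9% to 50.9% with a single replicate, 35.3% within 500 bp and 55.4% within 2000 bp. The share on X, 15.1%, was 18.7% with narrow windows and 11.4% with wide windows. The share in both replicate lists, 57.9%, was 53.6% with wide windows, 66.3% at 20%, 84.6% at an IDR of at most 0.001 and 45.0% when an overlap had to cover 50% of both peaks. Genes with an AT-rich summit, 525, numbered 132 with wide windows, 156 at 20% and 1020 at 30%. TATAAA, in 43.7%, was in 36.5% with narrow windows, in 55.4% at 20% and in 35.5% at 30%. The share more than 100 and up to 200 bp upstream, 49.3%, was 40.2% with narrow windows and 61.8% at 20%. The flanking G plus C of 45.4% was 44.9% with narrow and with wide windows, 45.2% at 30%, 45.5% at 20% and at an IDR of at most 0.001, 45.3% at peak midpoints, 45.4% in the other list and 45.3% to 45.4% with a single replicate. The results on the upstream band and on the flanks were added after the data were seen. The cause of these shifts was not tested beyond the fewer or other peaks that each choice keeps. No paired analysis was possible because there is 1 group. Depth, input coverage and chromatin state were not analysed here.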

Other observations

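Noncoding genes lay near some AT-rich summits too. A start site of a noncoding RNA gene lay within 1000 bp of 40 AT-rich summits (4.61%, interval 3.31 to 6.22) and of 243 other summits (4.11%, 3.62 to 4.65), and 23 of the 40 had no protein-coding start site as near. A tRNA gene lay within that distance of 1 AT-rich summit and of 37 other summits (0.626%), and a snoRNA gene of 0 and 19. The intervals for noncoding RNA genes overlap.

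The strongest 100 AT-rich peaks were nearer to start sites than AT-rich peaks at large. Of these, 73 lay within 1000 bp and 35 lay more than 100 and up to 200 bp upstream, against 63 and 17 of the strongest 100 other peaks.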
